A study of Mus musculus with 6 samples.

Results

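Adventitial matrix fibroblasts (FBs) were taken from the 4 lung libraries of the study as barcodes with at least 2000 unique molecular identifiers (UMIs, 1 for each captured transcript), no UMI of Ptprc, Pecam1 or Epcam, and at least 3 UMIs in the sum of Pi16, Scara5 and Col14a1, which also had to exceed the sum of Tcf21, Col13a1 and Npnt. This gate held 2227 of 18951 barcodes. They were 69 of 1060 barcodes after a single dose of PBS, 151 of 1015 after a single dose of bleomycin, 570 of 6139 after repetitive PBS and 1437 of 10737 after repetitive bleomycin. They were compared with the 8767 remaining barcodes that passed the same limits on depth and on Ptprc, Pecam1 and Epcam, had at least 1 Pdgfra UMI and lay outside the gate. The members were selected on UMI counts of the named genes in the same tables that are described here, so values of the gate against the remaining barcodes describe the choice and carry no test.

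Adventitial FBs lie in the connective tissue sleeve around large vessels and bronchi, apart from the FBs of the alveolar wall. Pi16 encodes a secreted peptidase inhibitor and Scara5 a scavenger receptor that takes up ferritin, and both are known as markers of adventitial FBs in many organs. Col14a1, a collagen on the surface of fibrils, and Dcn, the proteoglycan decorin, belong to the matrix these cells lay down. Tcf21 (a transcription factor), Col13a1 (a transmembrane collagen) and Npnt (nephronectin, an integrin ligand) mark FBs of the alveolar wall, where the lipofibroblasts (LipoFBs) reside. In GRCm38 with GENCODE M21, Pi16 lies at chromosome 17, 29317680 to 29330593, Scara5 at chromosome 14, 65666403 to 65764826, and Col14a1 at chromosome 15, 55307750 to 55520803.

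The study sorted live GFP+ cells from lungs of male mice, 10 to 14 weeks old, that carried the Pdgfra-GFP reporter (PDGFRa-EGFP), in which a nuclear green protein is made from the Pdgfra locus. Single-dose mice received 50 µl of PBS or bleomycin, a DNA-damaging drug that injures the alveolar epithelium and scars the lung, at 2 U/kg in the protocol text and 4 U/kg in the treatment label. Repetitive dosing was once a week for 3 weeks with PBS or bleomycin, the bleomycin dose being 1 U/kg in the first weeks and 0.5 U/kg in the last. Lungs were taken 14 days after the last dose in every group, and 3 mice were pooled into each of the 4 libraries. All cells, controls included, came from reporter mice and from the GFP+ sort, so a FB without GFP was outside the sort by design. Barcodes without a Pdgfra UMI were still present. Each condition was 1 library, the spread between mice is unknown, and differences between libraries carry no replicate check and no p-value.

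**Figure D1:**
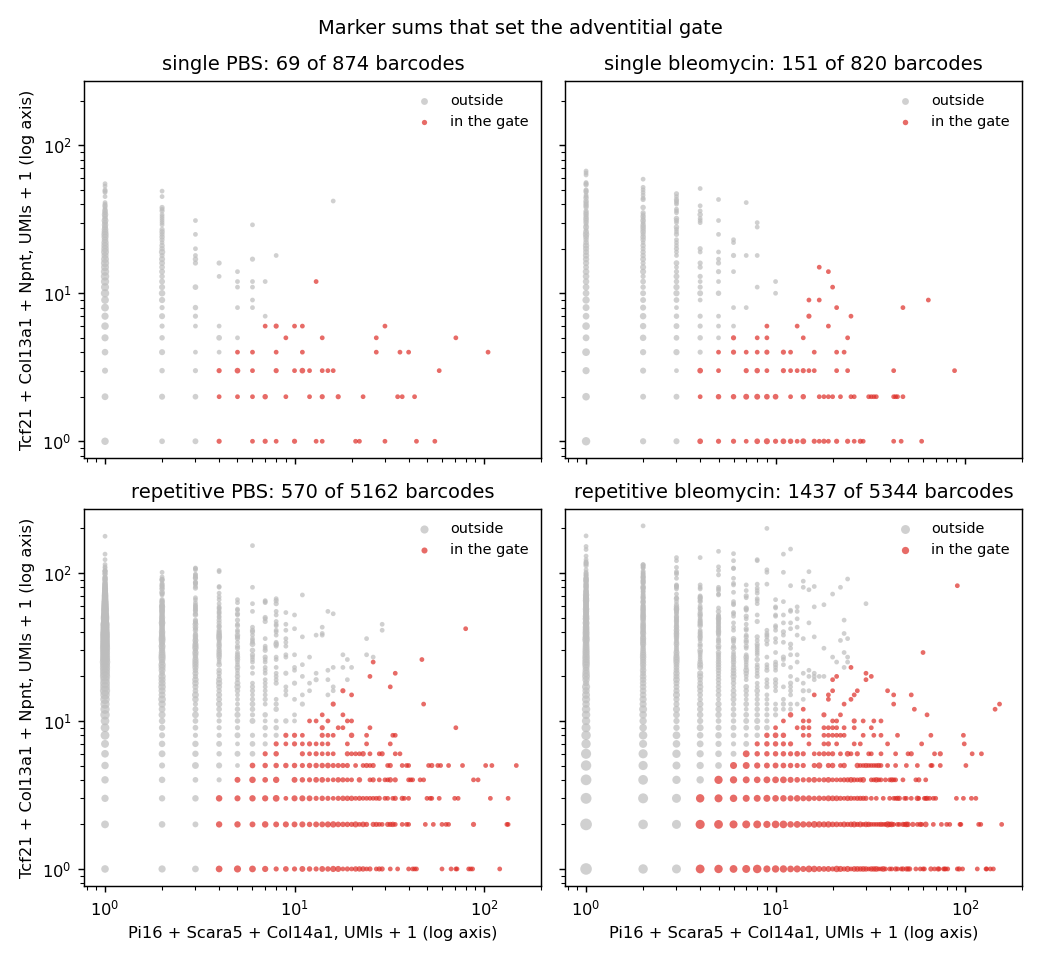
Each point is a combination of the summed UMIs of Pi16, Scara5 and Col14a1 (x axis, plus 1, log scale) and of Tcf21, Col13a1 and Npnt (y axis, plus 1, log scale) in 1 library, with larger points for more barcodes. The gate (red) took 69 of 874, 151 of 820, 570 of 5162 and 1437 of 5344 barcodes within the limits.

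The edge of the gate was not empty. The summed UMIs of Pi16, Scara5 and Col14a1 were exactly 3 in 5, 9, 28 and 131 gate barcodes (single PBS, single bleomycin, repetitive PBS, repetitive bleomycin, the order used for values given without names below). The margin over the alveolar sum was 1 UMI in 5, 7, 25 and 106. Just outside, 9, 11, 16 and 97 barcodes had a sum of 2 that exceeded the alveolar sum, and 3, 5, 15 and 51 had at least 3 UMIs in both sums with a tie. A larger group of 22, 63, 424 and 730 barcodes had at least 3 UMIs of the adventitial genes but more of the alveolar genes, and stayed outside. Depth in the gate was close to that of the remaining barcodes in single PBS, with medians of 7365 and 7094.5 UMIs, and lower in single bleomycin (8582 and 12636), repetitive PBS (9368 and 10720) and repetitive bleomycin (6520 and 10878).

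The 5 markers named for these cells were present in the gate in all 4 libraries. Levels are UMIs summed over the barcodes of a library and scaled to counts per 1e6 UMIs (CPM), with exact 95% Poisson intervals in parentheses that cover counting error only. Pi16 was at 1694 (1582 to 1813) CPM in single PBS, 738 (695 to 783) in single bleomycin, 902 (878 to 928) in repetitive PBS and 723 (708 to 738) in repetitive bleomycin. Scara5 was at 209.5 CPM in single PBS, 162 in single bleomycin, 288 in repetitive PBS and 251 in repetitive bleomycin, and Col14a1 at 328 CPM in single PBS, 554 in single bleomycin, 683 in repetitive PBS and 943 in repetitive bleomycin. In the remaining barcodes the same libraries held 20.3, 16.3, 7.57 and 10.8 CPM of Pi16, 2.37, 3.57, 2.11 and 4.49 CPM of Scara5 and 29.96, 51.9, 58.7 and 132 CPM of Col14a1. Ly6c1 and Dcn were not part of the rule. Ly6c1, a surface protein whose reads may be shared with its near-identical relatives, was at 381 CPM in single PBS, 325 in single bleomycin, 223 in repetitive PBS and 211 in repetitive bleomycin, against 9.26, 20.2, 1.83 and 5.78 CPM in the remaining barcodes. Dcn was at 10719 CPM in single PBS, 5210.1 in single bleomycin, 12522 in repetitive PBS and 9327 in repetitive bleomycin, against 668, 642, 904 and 1209.7 CPM. Every marker was higher in the gate in each library, as the plot of marker and programme genes shows. The share of gate barcodes with a Pdgfra UMI was 73.9%, 72.8%, 79.5% and 69.9%.

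**Figure D2:**
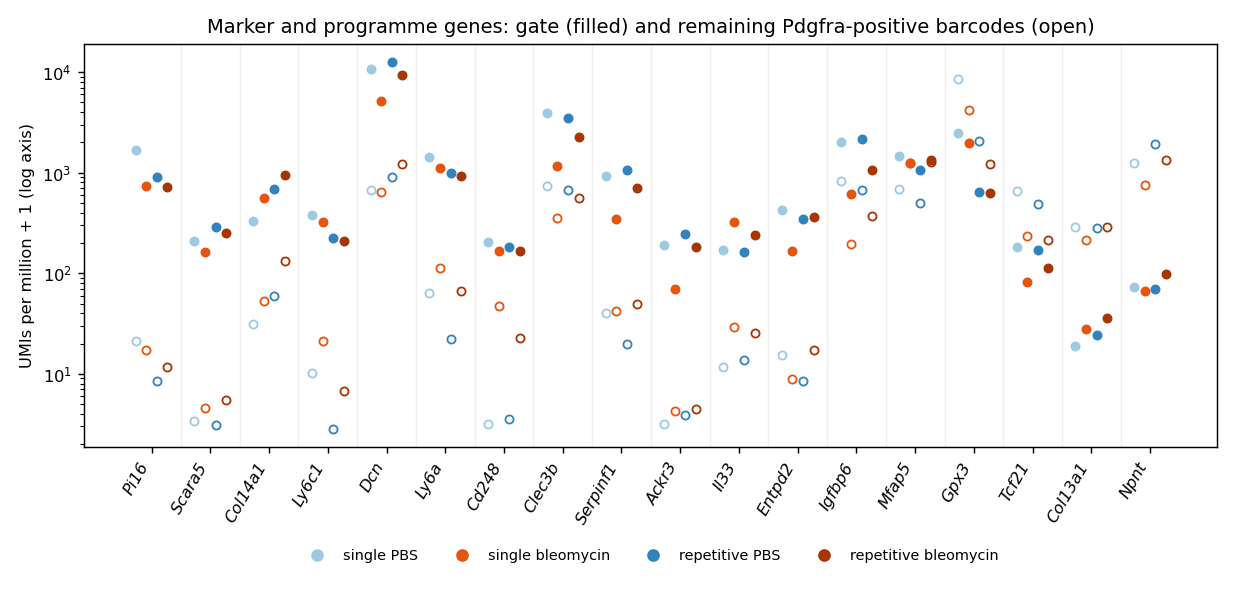
Levels in CPM plus 1 (y axis, log scale) of the 5 markers, 10 programme genes and the 3 alveolar genes of the rule, for the gate (filled) and the remaining Pdgfra-positive barcodes (open) of each library. Dcn reaches 12522 CPM in the gate of repetitive PBS, and Gpx3, Tcf21, Col13a1 and Npnt are higher in the remaining barcodes.

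Markers of other cells were present in the gate at different levels. The 4 endothelial markers summed to 4.03, 3.99, 2.48 and 1.76 CPM. The 5 epithelial markers summed to 866 CPM in single PBS and to 91.8, 52.3 and 61.9 in the others, most of it Scgb1a1, the club cell secretory protein, at 784 CPM. Immune barcodes, used to gauge free RNA, had a Ptprc UMI, no Pdgfra UMI and at least 500 UMIs, and there were 29, 45, 210 and 390 of them with medians of 4001, 6527, 4024 and 3771.5 UMIs. Scgb1a1 was similarly high in the remaining barcodes (688) and in immune barcodes (839) of that library. The 6 myeloid markers summed to 38.3, 53.2, 10.3 and 147 CPM, the last from repetitive bleomycin, with Lyz2 at 127 there and 5.67 in repetitive PBS. In repetitive bleomycin the top barcode of each gene held 57.1% of the Lyz2, 51.1% of the C1qa and 71.9% of the Cd68 UMIs, and without its top barcode Lyz2 was at 54.4 CPM. Mesothelial markers summed to 2.01, 95.8, 62.5 and 29.9 CPM in the gate and 1.77, 13.5, 2.41 and 11.0 outside. Msln was at 0 in the gate of the first 3 libraries. Wt1 was the main part of the mesothelial sums, at 2.01, 67.9, 55.8 and 22.4 CPM in the gate. The B and plasma cell markers, Igkc for the most part, gave the largest of these sums, at 2.01, 9.32, 4300.1 and 3308 CPM in the gate and 12.02, 10.6, 3.57 and 325 outside. In repetitive PBS 1 barcode held 99.9% of the Igkc UMIs, while in repetitive bleomycin 19.1% of gate barcodes had an Igkc UMI. The 6 smooth muscle and mural markers summed to 28.2, 119.8, 23.6 and 65.03 CPM in the gate and 72.5, 238, 49.5 and 98.5 outside, and the 4 peribronchial markers, mostly Hhip and Adh7, to 248, 115, 236 and 171 CPM against 40.6, 119, 36.8 and 269. Schwann, neutrophil, T cell and erythrocyte markers each summed to at most 30.2 CPM in a library. Immunoglobulin transcripts passed 1% of UMIs in 0, 0, 1 and 50 gate barcodes. No doublet caller was used, and barcodes with any Ptprc, Pecam1 or Epcam UMI were already outside. Libraries shared 2 barcodes (single PBS and single bleomycin), 28 (repetitive PBS and repetitive bleomycin) and 1 (single bleomycin and repetitive PBS), and none of them was in the gate in both.

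The gate was a larger share of barcodes in the bleomycin libraries. Within the limits on depth and lineage genes it held 7.89% of barcodes in single PBS (exact Clopper-Pearson 95% interval 6.19 to 9.89) and 18.4% in single bleomycin (15.8 to 21.2). It held 11.0% in repetitive PBS (10.2 to 11.9) and 26.9% in repetitive bleomycin (25.7 to 28.1). With every barcode thinned to 2000 UMIs before the rule was applied, the shares were 4.81%, 9.63%, 6.39% and 17.6%. The bleomycin share was above the PBS share in both experiments, at full depth and thinned. The intervals cover the counting of barcodes in 1 library and say nothing of the spread between mice or libraries. The gate and the Pdgfra-positive sort set these shares, and a shift in what passed the sort cannot be told apart from a shift in the tissue. Genes of the rule also differed outside the gate. In the remaining barcodes Tcf21, Col13a1 and Npnt summed to 2175, 1193, 2680 and 1852 CPM. Col14a1 was higher there with bleomycin than with PBS of the same experiment, as given above. The part of these differences in the shares was not tested.

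**Figure D3:**
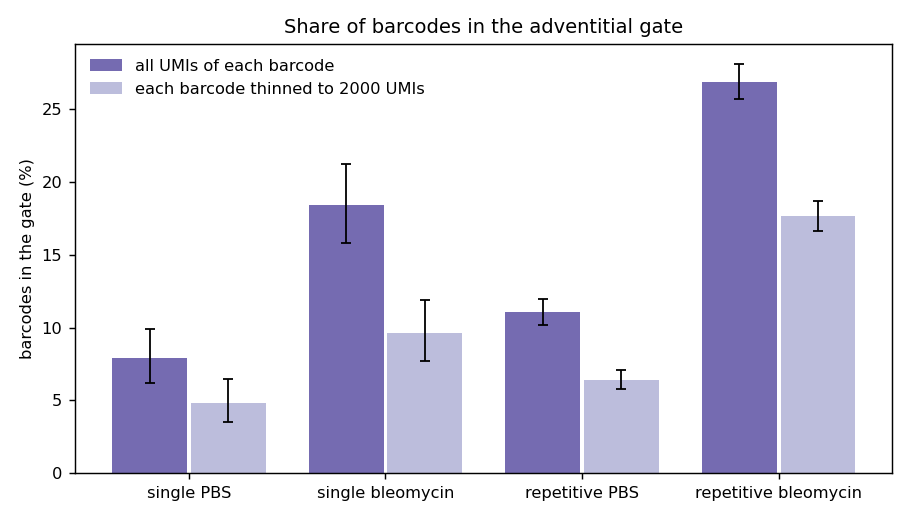
Share of barcodes in the gate (y axis, %, from 0) in the 4 libraries, with all UMIs (dark) and with each barcode thinned to 2000 UMIs (light). Bars are shares and lines are exact 95% Clopper-Pearson intervals, and the bleomycin shares of 18.4% and 26.9% lie above the PBS shares of 7.89% and 11.0%.

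Beyond the rule, the gate held a wide adventitial programme. Among genes with at least 50 UMIs over both groups of a library, a value past 2-fold on the log2 scale after adding 1 CPM was called. The gate was higher for 5.57%, 4.33%, 7.29% and 5.35% of all genes and lower for 11.5%, 6.51%, 7.59% and 5.15%, which is the background for the counts that follow. Of a list of 20 adventitial genes, 13 of 16 with enough UMIs were higher in single PBS, 12 of 18 in single bleomycin, 16 of 20 in repetitive PBS and 15 of 20 in repetitive bleomycin. The median log2 ratio of the list was 2.20, 2.20, 3.21 and 2.44, and that of all genes was -0.08, -0.10, -0.08 and -0.08. The choice of barcodes fixes the direction of such a list, and the counts are given as a description.

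Several surface proteins of the list stood well above the remaining barcodes. Ackr3, a receptor that removes CXCL12, was at 189, 69.2, 246 and 181 CPM in the gate and 2.17, 3.31, 2.86 and 3.51 CPM in the remaining barcodes. Ly6a, the stem cell antigen Sca-1, was at 1436, 1110.2, 989 and 918 CPM against 62.5, 111, 21.4 and 65.3 CPM, and its reads may be shared with other Ly6 genes. Cd248, or endosialin, was at 201, 167, 180.02 and 166 CPM in the gate and 2.17, 45.8, 2.56 and 21.97 CPM outside. Both Cd248 and Ly6a were nearer to the gate in the remaining barcodes of the bleomycin libraries than in those of PBS. Entpd2, which cleaves extracellular nucleotides, was at 423, 164, 349 and 364 CPM against 14.4, 7.94, 7.57 and 16.4 CPM. Dpp4, the dipeptidyl peptidase that marks FBs of this kind, was sparse, at 8.06, 15.3, 33.3 and 26.8 CPM in the gate. It was under 1 CPM in the remaining barcodes of each library.

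Secreted members of the programme were also high. Serpinf1, an inhibitor of vessel growth, was at 931, 349, 1063 and 706 CPM against 39.4, 41.1, 18.6 and 48.95 CPM. Clec3b, or tetranectin, which binds plasminogen, was at 3922, 1152, 3478 and 2246 CPM against 731, 355, 677 and 559 CPM. Il33, an alarmin cytokine, was at 169, 325, 162 and 238 CPM against 10.6, 28.4, 12.8 and 24.2 CPM. Gpx3, a secreted peroxidase on the same list, ran the other way, at 2464, 1992, 644 and 621 CPM in the gate and 8528, 4209, 2046 and 1219 CPM outside. Mfap5 and Fbn1, parts of microfibrils, stood higher in the gate of the PBS libraries, with log2 ratios near 1 there (1.10 and 1.09 for Mfap5, 1.18 and 0.98 for Fbn1) and near 0 in the bleomycin libraries (Mfap5 -0.00327 and 0.07, Fbn1 0.06 and 0.12). For both genes the level in the remaining barcodes was higher under bleomycin, with Fbn1 at 128, 629, 368 and 829 CPM.

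Most genes of alveolar LipoFBs, the neighbouring population, were low in the gate. Of 15 genes, 12, 12, 12 and 14 were lower, with a median log2 ratio of -2.17, -2.19, -2.52 and -2.02. Gpc3 went the other way in single PBS, higher past 2-fold (log2 ratio 1.08). The rule itself set barcodes rich in alveolar rule genes outside the gate, so these counts are a description. Inmt, a methyltransferase abundant in alveolar FBs, was at 2573, 477, 1891 and 773 CPM in the gate and 9847, 1989, 5007 and 1591 CPM outside. Wnt2, a ligand of the alveolar niche, was at 14.1, 10.6, 6.56 and 16.6 CPM against 171, 99.1, 144 and 78.3 CPM. The T-box factors of lung mesenchyme followed the same order, with Tbx4 at 24.2, 21.96, 49.97 and 62.2 CPM in the gate and 61.1, 57.2, 160.2 and 189 CPM outside, and Tbx2 lower in each library (log2 ratios of -1.77 to -1.37). Among the other transcription factors fixed for identity, Osr1, Ebf1, Klf4 and Gata6 were higher past 2-fold in all 4 libraries, with Ebf1 at 284, 311, 542 and 458 CPM against 8.47, 12.8, 7.28 and 18.1 CPM. Twist2 was higher in the other 3 libraries and had too few UMIs to call in single PBS (log2 ratio 4.95).

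Complement, chemokine and protease genes were unevenly spread between the groups. Of 10 complement genes, 5, 4, 7 and 6 were higher in the gate, C4b, Cfb and Cd55 in all 4 libraries. C4b, whose reads can be shared with C4a, was at 475, 821, 829.8 and 1669 CPM in the gate and 236, 371, 312 and 643 CPM outside. Of the chemokines and cytokines, 10 of 15, 8 of 18, 12 of 18 and 6 of 20 were higher, and Ccl11 (eotaxin), Ccl19 and Il33 were so in each library. Cxcl14 was lower in each, at 238, 499.8, 137 and 209.7 CPM against 1368, 1612, 712 and 683 CPM. Of the proteases and their inhibitors, Mmp23, Timp2, Adamts5, Htra1 and Htra3 were higher in each library and Serpine2 was lower. Among growth factors, Igfbp4, Igfbp5 and Igfbp6, which bind insulin-like growth factors, were higher in each, and Pdgfra itself was lower, at 234, 173, 262 and 218 CPM against 582, 357, 648 and 467 CPM. The remaining barcodes were required to have a Pdgfra UMI, and the gate was not.

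Of all genes with 50 UMIs in each library, 132 of 7504 (1.76%) were higher in the gate past 2-fold in all 4 libraries and 190 (2.53%) were lower. On no list, the 10 highest by the smallest of the 4 ratios were Meg3, Scara3, Ndufa4l2, Gxylt2, Fez1, Prss23, Olfml2b, Lmo2, Adgrd1 and Opcml. Meg3, an imprinted long noncoding RNA, was at 564, 468, 214 and 142 CPM in the gate and 18.5, 17.6, 6.57 and 4.86 CPM outside, and Prss23, a secreted protease, at 189, 248, 153 and 164 CPM against 6.70, 34.00, 4.97 and 11.96 CPM. The 10 lowest were Scn3a, Scube2, Upk1b, Nebl, Prom1, Mapt, Adra1a, Car2, Gja5 and the carboxypeptidase gene Cpm. Scn3a, a sodium channel subunit, was at 2.01, 2.00, 18.6 and 13.5 CPM in the gate and 132, 63.4, 388 and 168 CPM outside. Adra1a, an adrenergic receptor, was at 4.03, 0.666, 28.9 and 18.04 CPM against 64.8, 11.5, 339 and 137 CPM.

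The gate was not uniform within a library. A Pi16 UMI was seen in 66, 124, 466 and 1097 of its barcodes, or 95.7%, 82.1%, 81.8% and 76.3%. A further 1, 9, 70 and 144 barcodes had Scara5 without Pi16, and 2, 18, 34 and 196 qualified by Col14a1 alone. Barcodes that qualified by Col14a1 alone made 2.90%, 11.9%, 5.96% and 13.6% of the gate. Since these subgroups were cut by UMIs of the rule genes, the following levels are descriptions, and single PBS is left out because it had 2 such barcodes.

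Barcodes with Pi16 held more Ly6c1, Clec3b and Ackr3 than those with Col14a1 alone. In single bleomycin, repetitive PBS and repetitive bleomycin, Ly6c1 was at 415, 256 and 269.9 CPM with Pi16, and at 27.5, 20.2 and 27.3 with Col14a1 alone. Clec3b was at 1428, 3751 and 2677 against 216, 1539 and 774. Ackr3 was at 87.2, 284 and 243 against 3.93, 74.1 and 7.29. Dpt, or dermatopontin, was nearly level, at 993, 889 and 1001 against 712, 808 and 879.

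Genes of contractile cells, and some matrix genes, ran the other way. Acta2, smooth muscle actin, was at 133, 24.95 and 76.9 CPM with Pi16 and at 1325, 222 and 282 with Col14a1 alone. Tagln, its partner transgelin, was at 108, 29.5 and 88.7 against 995, 313 and 332. Both genes were higher without Pi16 in each of the 3 libraries, PBS included. In single and repetitive bleomycin, Tnc was at 28.8 and 61.5 CPM with Pi16 and at 201 and 245 with Col14a1 alone. Ltbp2 was at 141 and 112 against 472 and 566, Postn at 154 and 59.5 against 425 and 150. Eln was at 2318 and 1623 against 4168 and 3214. Col1a1 and Lum were higher with Col14a1 alone in single bleomycin and lower in repetitive bleomycin, and Dcn and Fbln2 were lower in both. Hhip, a hedgehog-binding protein of peribronchial FBs, was at 70.6 and 81.6 with Pi16 in the repetitive libraries and at 384 and 358 with Col14a1 alone, while in single bleomycin it was at 87.2 and 58.99. Adh7, a retinol dehydrogenase, was on the side of Pi16, at 175 against 10.1 in repetitive PBS. The single-dose ratios of Acta2 and Tagln below are therefore also described without the barcodes that had Col14a1 alone.

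Within the gate, bleomycin and PBS differed past 2-fold in few genes. Of 4690 genes with 50 UMIs over both single-dose libraries, 288 (6.14%) were higher under bleomycin and 192 (4.09%) were lower. Of 11600 in the repetitive libraries, 395 (3.41%) were higher and 170 (1.47%) were lower. Of 4485 genes tested in both, 76 (1.69%) were higher in both, 33 (0.736%) were lower in both and 4 (0.0892%) were called in opposite directions. The median log2 ratio of all genes was 0.02 in the single-dose gate and 0.10 in the repetitive gate. The gate of single PBS held 496395 UMIs in all, and 1 UMI there is worth about 2 CPM, so low genes of that library are known only roughly.

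Of the 5 markers that named the population, Pi16, Scara5 and Col14a1 were part of the rule, so their presence in the bleomycin gate was fixed by it. Pi16 had a log2 ratio of bleomycin to PBS of -1.20 after the single dose and -0.32 after repetitive doses, and Dcn of -1.04 after the single dose and -0.42 after repetitive doses. The single-dose values were past 2-fold, but both calls were lost under the thinned rule (-0.75 for Pi16 and -0.74 for Dcn, the smallest sizes found). In that alternative barcodes were thinned to 2000 UMIs to choose the gate, and ratios used all UMIs of the chosen barcodes. Both calls were also lost without Col14a1 in the rule (-0.88 and -0.89) and without barcodes of Col14a1 alone (-0.97 and -0.92). They were lost with the mean of barcode CPM too (-0.92 and -0.88). The Dcn call was further lost in gate barcodes with a Pdgfra UMI (-0.88) and without the deepest 5% of barcodes (-0.93). Scara5 (-0.37 and -0.20), Col14a1 (0.75 and 0.46) and Ly6c1 (-0.23 and -0.08) were within 2-fold in both experiments. Of the 20 programme genes, 7 of 18 fell and 1 rose past 2-fold after the single dose, and 2 of 20 fell after repetitive doses. Under the thinned rule, 4 of the 18 fell after the single dose, without Ackr3 (-0.88), Cd34 (-0.77) and Serpinf1 (-0.98), and Cd34 was past 2-fold in 7 of 16 alternatives. The medians were -0.36 and -0.11.

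Igfbp6 was the 1 programme gene that fell in both. It was at 2023 (1899 to 2152) CPM in single PBS, 607 (568 to 648) in single bleomycin, 2168 (2129.6 to 2207) in repetitive PBS and 1057 (1039 to 1075) in repetitive bleomycin. The bleomycin libraries were lower in both experiments, by 3.33-fold and 2.05-fold, and the repetitive value lay at 2-fold, with log2 ratios of -1.13 to -0.91 over the alternatives tried. Clec3b and Pcolce2, an enhancer of procollagen processing, fell after the single dose (log2 ratios -1.77 and -2.08) and had -0.63 and -0.83 after repetitive doses. Has1, a hyaluronan synthase, fell after repetitive doses, from 361 to 89.96 CPM, and stood at 46.3 and 31.9 in the single-dose libraries. Sfrp4, a secreted Wnt binder, had the highest ratio of the list after repetitive doses, 0.91, which was not past 2-fold.

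Collagen genes rose. Of 16 collagen genes, 11 rose after the single dose and 5 after repetitive doses, none fell, and the medians were 1.50 and 0.62 against 0.02 and 0.10 for all genes. Col1a1, a chain of type I collagen, was at 1876 (1757 to 1999.97) CPM in single PBS, 5585 (5466 to 5706) in single bleomycin, 1377 (1346 to 1408) in repetitive PBS and 4648 (4611 to 4686) in repetitive bleomycin. Both bleomycin libraries were above both PBS libraries, 2.98-fold (95% interval 2.78 to 3.19) and 3.38-fold (95% interval 3.30 to 3.46). Col3a1, type III collagen, was at 2552, 9705, 2039 and 6582 CPM and rose 3.80-fold and 3.23-fold. Col5a2, which starts fibrils, was at 163, 759, 358 and 838 CPM. These 3 collagens were past 2-fold in both experiments under each of the 16 alternatives tried, and Col1a2 and Col4a2 were not. The UMI minimums among the 16 cannot change the ratio of a gene.

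Col12a1, a collagen of the fibril surface like Col14a1, rose after the single dose, from 4.03 to 54.6 CPM, and was at 31.7 and 40.7 CPM in the repetitive libraries. Enzymes and chaperones of collagen synthesis were set beside the 6.14% and 3.41% of all genes that were higher. Of the 17 collagen folding genes, 2 of 16 rose after the single dose and 1 of 17 after repetitive doses, and P4ha3, a prolyl hydroxylase, did so in both, at 0, 37.9, 1.77 and 12.4 CPM. With 10 CPM added the repetitive value of P4ha3 was under 2-fold (log2 ratio 0.93). Of the small leucine-rich proteoglycans, which sit on collagen fibrils, Lum (lumican) rose after the single dose (1.26) and had 0.65 after repetitive doses, and Omd fell after repetitive doses (-1.05). The Lum call was lost without Col14a1 in the rule (0.94) and the Omd call in 7 of 16 alternatives (-0.59 at the smallest).

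Elastic fibre genes rose in part. Of 19 tested in each experiment, 8 rose and 2 fell after the single dose, and 3 rose after repetitive doses. Eln, tropoelastin, was at 840.1 (761 to 925) CPM in single PBS, 2579.8 (2499 to 2662) in single bleomycin, 676 (654 to 697) in repetitive PBS and 1823 (1799 to 1847) in repetitive bleomycin, or 3.07-fold (95% interval 2.78 to 3.41) and 2.70-fold (95% interval 2.61 to 2.79) higher. Ltbp2, a latent TGF-beta binding protein of elastic microfibrils, went from 14.1 (5.67 to 29.1) to 249 (224 to 275) CPM and from 14.9 (11.9 to 18.4) to 191 (184 to 199) CPM. Its UMIs were seen in 2.90%, 43.7%, 5.79% and 34.2% of gate barcodes. Fbln5 and Efemp1, 2 fibulins, fell after the single dose (-1.19 and -1.16) and had -0.40 and -0.77 after repetitive doses. Both single-dose calls were lost under the thinned rule and without Col14a1 in the rule.

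Genes of activated FBs rose in the gate in both experiments. Of the fibrogenic list, 12 of 15 rose after the single dose and 10 of 17 after repetitive doses, none fell, and the medians were 2.26 and 1.18. Without Spp1, Acta2 and Tagln, whose limits are given below, 9 of 12 and 7 of 14 rose, with medians of 2.28 and 0.99. Of the 9 list genes that rose in both experiments, 5 had ratios past 2-fold under each of the 16 alternatives tried. These were Cthrc1, Postn, Spp1, Tnc and Sfrp1. Cthrc1, a secreted protein of scar-forming FBs, was at 2.01 (0.0510 to 11.2) CPM in single PBS, 114 (98.01 to 133) in single bleomycin, 4.25 (2.72 to 6.33) in repetitive PBS and 24.8 (22.1 to 27.7) in repetitive bleomycin. Postn, or periostin, a matricellular protein, was at 6.04 CPM in single PBS, 204 in single bleomycin, 7.09 in repetitive PBS and 72.7 in repetitive bleomycin, and Tnc, or tenascin C, at 0 CPM in single PBS, 69.9 in single bleomycin, 6.91 in repetitive PBS and 92.05 in repetitive bleomycin. Both bleomycin libraries were above both PBS libraries for each of the 3 genes. The rise of Postn was 33.7-fold (95% interval 11.4 to 164) and 10.3-fold (95% interval 7.48 to 14.5), while Tnc had no UMI in single PBS and was at least 11.6-fold higher in single bleomycin, counting a library at 0 as 3 UMIs. Sfrp1, a secreted Wnt inhibitor, rose from 92.7 to 779 and from 122 to 423 CPM.

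Barcodes with a Postn UMI were a minority of the gate. Postn was seen in 2.90%, 25.8%, 2.11% and 12.04% of gate barcodes, and after thinning to 2000 UMIs in 1.45%, 14.6%, 1.23% and 5.98%. In immune barcodes Postn was at 5.87, 19.8, 23.4 and 4.54 CPM and Col1a1 at 99.8, 389, 18.1 and 412 CPM. Gate levels of both in the bleomycin libraries were above those levels. Barcodes with UMIs of at least 2 of Cthrc1, Postn, Spp1, Tnc and Acta2 made 1.45%, 55.6%, 2.11% and 17.5% of the gate, and 0%, 21.9%, 0.351% and 7.24% after thinning. Immune barcodes thinned alike gave 0%, 4.44%, 0.508% and 6.87%, but they hold much Spp1 (below). Counted without Spp1, a choice made after its values were seen, the thinned shares in single bleomycin were 10.6% (6.18 to 16.6) in the gate and 0% (0 to 7.87) in immune barcodes, and in repetitive bleomycin 4.73% (3.69 to 5.96) and 2.06% (0.760 to 4.43). The exact 95% intervals of gate and immune barcodes overlapped in both libraries. Acta2 was among the genes counted, and the shares were not recomputed without barcodes that had Col14a1 alone. Of the 84 and 252 bleomycin barcodes with at least 2 of the 5 genes at full depth, 67 and 157 had a Pi16 UMI.

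Spp1, or osteopontin, was higher in immune barcodes than in the gate in each library. It was at 2.01 CPM in single PBS, 404 in single bleomycin, 0 in repetitive PBS and 200.4 in repetitive bleomycin in the gate, but at 17.6, 817, 77.7 and 5253 CPM in immune barcodes, where macrophages are known to make it. Its UMIs were in 88.7% of gate and 88.9% of immune barcodes in single bleomycin, and in 15.1% and 32.3% in repetitive bleomycin. The part of free RNA in the Spp1 of the gate was not tested. Acta2 and Tagln rose in both experiments as counted (2.26 and 1.71 and 1.15 and 1.62), but the top barcode of each gene held 82.4% of the Acta2 and 93.5% of the Tagln UMIs of single PBS, and a gate on Pi16 and Scara5 alone turned the single-dose ratios to -0.15 and -2.20. With barcodes of Col14a1 alone left out, neither was past 2-fold after the single dose. Markers of smooth muscle and mural cells moved with them. Des, or desmin, was at 1.88 and 1.06, and Myh11, smooth muscle myosin, at 1.66 and Notch3, a receptor of mural cells, at 2.12 after repetitive doses, where these were the 3 of 6 with enough UMIs. With 10 CPM added, the repetitive values of Myh11 (0.64) and Notch3 (0.74) were under 2-fold. The repetitive value of Des was past 2-fold in 9 of 16 alternatives, and the part of smooth muscle and mural cells in the rise of the fibrogenic list was not tested. Runx1, a transcription factor, and Fn1, fibronectin, rose in both (2.95 and 1.18, 2.69 and 1.11) and dropped under 2-fold after repetitive doses in the gate without Col14a1.

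**Figure D4:**
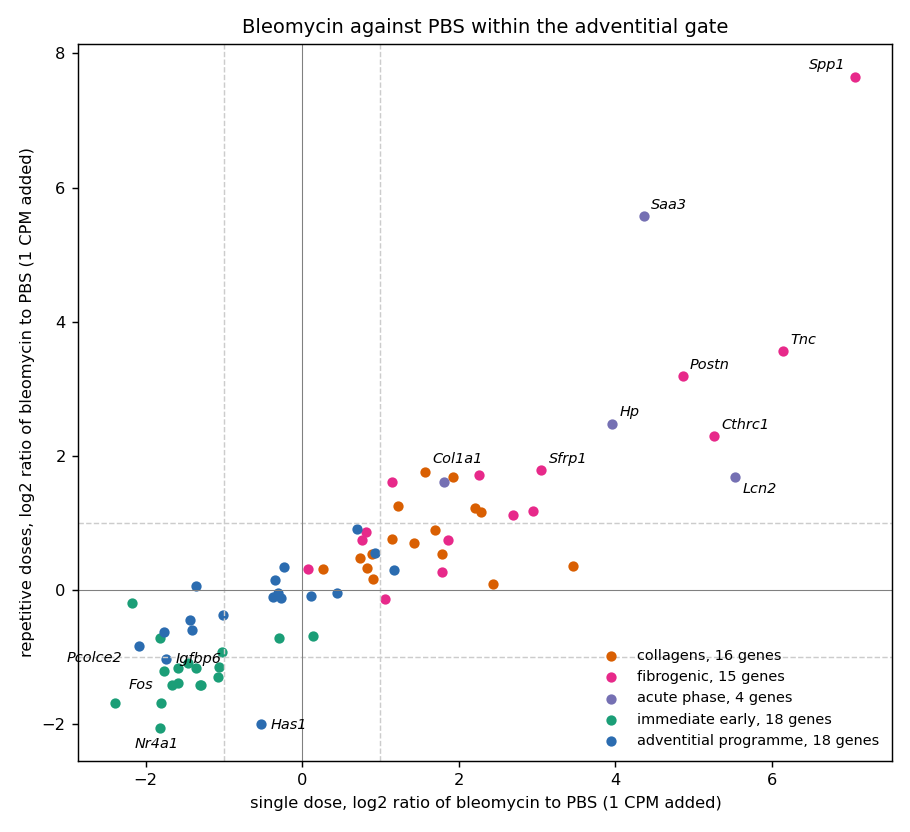
Log2 ratio of bleomycin to PBS in the gate after 1 dose (x axis) and after repetitive doses (y axis), 1 CPM added, for 5 gene lists with at least 50 UMIs in both experiments. Dashed lines mark 2-fold. Collagen and fibrogenic genes lie mostly right of 0, most immediate early genes lie in the lower left (Ier3 lies right of 0), and adventitial programme genes gather near 0 or below. Tnc in single PBS, Lcn2 in single PBS and Spp1 in repetitive PBS had no UMI, and their positions depend on the CPM added.

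Acute phase proteins rose in the gate. All 4 members tested rose in both experiments, with medians of 4.16 and 2.08, or 3.43 for the single dose with Lcn2 placed at its lower bound. Serpina3n, a serine protease inhibitor of a gene family with near-identical copies, was at 401 (347 to 461) CPM in single PBS, 1406 (1346 to 1467) in single bleomycin, 248 (235 to 261) in repetitive PBS and 760.5 (745 to 776) in repetitive bleomycin, 3.51-fold and 3.07-fold higher. Saa3, a serum amyloid A made outside the liver, was at 10.1 CPM in single PBS, 227 in single bleomycin, 2.13 in repetitive PBS and 148 in repetitive bleomycin. Hp, or haptoglobin, which binds free haemoglobin, was at 16.1 CPM in single PBS, 266 in single bleomycin, 22.7 in repetitive PBS and 131 in repetitive bleomycin, and immune barcodes held 11.7, 81.7, 149 and 106 CPM of Hp and 0, 54.5, 2.26 and 16.9 CPM of Saa3. In repetitive bleomycin the Hp level of the gate was near that of immune barcodes, while Saa3 and Serpina3n (immune 52.8, 210.5, 3.77 and 63.96 CPM) were well above. Lcn2, a siderophore-binding lipocalin, was at 0, 45.3, 8.33 and 28.9 CPM, and its rise after repetitive doses was not past 2-fold in the gate without Col14a1.

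Chemokines went in different directions. Of 16 tested after the single dose 7 rose and 1 fell, and of 20 after repetitive doses 3 rose and 6 fell. Ccl8, a ligand for monocytes and T cells, was at 34.2 (19.95 to 54.8) CPM in single PBS, 122 (105 to 141) in single bleomycin, 45.9 (40.5 to 51.8) in repetitive PBS and 154 (147 to 161) in repetitive bleomycin. It was higher with bleomycin in both experiments, 3.58-fold (95% interval 2.17 to 6.27) and 3.35-fold (95% interval 2.94 to 3.83). Cxcl1, which draws neutrophils, was at 385 CPM in single PBS, 149.8 in single bleomycin, 501 in repetitive PBS and 153 in repetitive bleomycin, lower with bleomycin in both, though the single-dose call was lost in 2 of 16 alternatives (-0.88 at the smallest). Cxcl13, the B cell chemokine, went from 6.04 to 1742 CPM after the single dose, with 39.5% of the bleomycin UMIs in 1 barcode and 1082 CPM without it. After repetitive doses it went from 64.3 to 201 CPM, a rise that was lost under the thinned rule (log2 ratio 0.08). Il6 and Ptgs2 fell after repetitive doses, from 235 to 69.4 and from 564 to 148 CPM. In the same library the myeloid markers were at their highest, as given above, and their part in these values was not tested.

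Immediate early genes, which respond within minutes to stimulation and also to tissue dissociation, fell as a group. Of 18, 16 fell after the single dose and 13 after repetitive doses, none rose, and the medians were -1.52 and -1.19. Fos was at 3137 (2983 to 3296) CPM in single PBS, 926 (878 to 976) in single bleomycin, 3262 (3215 to 3309) in repetitive PBS and 1409.6 (1389 to 1431) in repetitive bleomycin, lower with bleomycin by 3.39-fold and 2.31-fold. Atf3 was at 620.5, 118, 871 and 271 CPM, Nr4a1 at 675, 191, 795 and 189.8 CPM and Dusp1 at 1261, 515, 1195 and 446 CPM. Fos, Fosb, Junb, Atf3, Dusp1, Nr4a1 and Btg2 had ratios lower past 2-fold in both experiments under each of the 16 alternatives. Cxcl1 and Klf4 (896, 348, 829 and 370.4 CPM), the latter also an identity factor higher in the gate, were low in the same libraries. In the remaining barcodes 17 of these 18 genes fell after the single dose and 4 after repetitive doses, and the part that handling of each library had in these values cannot be told apart from treatment, since each library was handled once.

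Metabolic and alveolar genes that the gate still held moved in both directions. Of the alveolar list, 6 of 11 fell and 1 rose after the single dose, and 1 of 15 fell and 1 rose after repetitive doses. Of all genes, 4.09% fell and 6.14% rose after the single dose, and 1.47% fell and 3.41% rose after repetitive doses. The repetitive count was thus 1 gene each way. Inmt was at 2573 (2433 to 2718) CPM in single PBS, 477 (442 to 513) in single bleomycin, 1891 (1855 to 1927) in repetitive PBS and 773 (758 to 789) in repetitive bleomycin, 5.40-fold and 2.45-fold lower with bleomycin. Immune barcodes held 739, 228, 201 and 135 CPM of Inmt, below the gate in each library. Gsta3, a glutathione transferase, was at 193, 29.95, 220.4 and 84.5 CPM, and Adh7 at 177, 25.96, 148 and 36.3 CPM, with bleomycin lower in both experiments. The ratios of these 3 genes were lower past 2-fold in both experiments under each of the 16 alternatives. The UMI minimums among these cannot change a ratio, and whether a gene met them was not part of the count. After the single dose 5 further alveolar genes fell, Gpc3, Itga8, Cdo1, Mettl7a1 and Hsd11b1. Lpl, lipoprotein lipase, rose after the single dose (1.25), though not under the thinned rule (0.75) or without Col14a1 in the rule (0.56). Wnt2 rose after repetitive doses (1.22), though not with 10 CPM added (0.68). None of the 5 that fell after the single dose was past 2-fold after repetitive doses, where the median of the 15 genes was 0.02 against -1.16 for the 11 tested after the single dose.

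Counts in other pathways stand beside 6.14% of all genes higher and 4.09% lower after the single dose and 3.41% and 1.47% after repetitive doses. Of the Wnt genes 3 of 7 rose after the single dose and 2 of 12 after repetitive doses, Sfrp1 in both. Wnt4, among the single-dose rises, had 51.1% of its single bleomycin UMIs in 1 barcode. With its top barcode left out it was under 2-fold (0.49). Of the TGF-beta and BMP genes 1 rose and 3 of 15 fell after the single dose, Tgfbr2 (a TGF-beta receptor, 1.15) and Id1 (a BMP target, -1.40, past 2-fold in 14 of 16 alternatives) at the ends, and 0 of 16 were called after repetitive doses. Igf1, insulin-like growth factor 1, rose in both experiments, from 264 to 729 and from 222 to 499.9 CPM. After repetitive doses its rise was under 2-fold under the thinned rule (log2 ratio 0.91) and in the gate without Col14a1 (0.88). Serpine2, a protease inhibitor, rose in both as counted (2.34 and 1.52) but in neither under the thinned rule or without Col14a1 in the rule. Of the complement genes, 0 of 10 were called after the single dose and 1, C4b, after repetitive doses, at a log2 ratio of 1.01 that stayed past 2-fold in 12 of 16 alternatives.

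Interferon genes rose in 3 of 11 after the single dose, Irf7 (2.07), Ifi27l2a and Rsad2, and in 0 of 12 after repetitive doses. The single-dose count turned on few barcodes. In single PBS the top barcode of each gene held 82.6% of the Ifit1 and 73.1% of the Ifit3 UMIs, and with the top barcode of each gene left out 7 of the 11 rose, Ifit1 (2.52), Ifit3 (1.94), Iigp1 (1.44) and Oasl2 (1.33) among them. The count was 9 with at least 5 UMIs of the rule genes, 10 under the thinned rule and 2 to 4 under the other alternatives. Rsad2, an antiviral enzyme, had 60.3% of its single bleomycin UMIs in 1 barcode and was under 2-fold in 4 alternatives (0.68 at the lowest). After repetitive doses the count was 0 under each alternative.

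Genes of growth arrest after the single dose, and of division in both experiments, were mostly too low to test. Of 12 p53 targets, 5 were tested after the single dose, of which Bax rose (1.13, and 0.85 in gate barcodes with a Pdgfra UMI). Of the 12 tested after repetitive doses Eda2r was at the 2-fold line (1.00) and under it in 10 of 16 alternatives (0.66 at the lowest). Of 15 cell cycle genes, 2 and 7 were tested. Mki67 and Top2a rose after repetitive doses, at 0.177 and 4.09 CPM for Mki67, but the top barcode of each gene in repetitive bleomycin held 88.2% of the Mki67 and 76.8% of the Top2a UMIs. Of the identity transcription factors, Ebf2 rose and Foxf1, Meox2 and Klf4 fell of 14 tested after the single dose, and Klf4 fell of 21 after repetitive doses. The single-dose call was lost in 4 of 16 alternatives for Ebf2 (0.89 at the lowest), 5 for Foxf1 (-0.64 at the smallest) and 4 for Meox2 (-0.88). The Klf4 call was lost under the thinned rule in both experiments. Of the antioxidant genes, Mt2 and Cyp1b1 rose after the single dose, Gstm1 and Gsta3 fell, and Mt1 and Gsta3 fell after repetitive doses.

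On no list, the 10 genes with the highest ratio in both experiments were Chl1, Lrg1, H2-Q7, Ecscr, Ndnf, Serpina3g, Serpinb6b, Bpgm, C1qtnf6 and Adamtsl2. Chl1, a neural cell adhesion protein, was at 0 CPM in single PBS, 63.9 in single bleomycin, 0.532 in repetitive PBS and 65.5 in repetitive bleomycin, at least 10.6-fold higher after the single dose. In repetitive PBS it had 3 UMIs, for a ratio of 123-fold (95% interval 42.02 to 599). C1qtnf6, a secreted C1q-like protein, was at 26.2, 149.8, 12.9 and 47.1 CPM, and Ndnf, a secreted factor, at 4.03, 33.9, 11.3 and 56.9 CPM. Lrg1, a secreted glycoprotein, had no UMI in either PBS gate and reached 33.9 and 25.3 CPM with bleomycin. Immune barcodes of those libraries held 173 and 25.2 CPM of Lrg1, no less than the gate in single bleomycin and about as much in repetitive bleomycin, and the part of free RNA was not tested. H2-Q7, an MHC class I gene, and Serpina3g have near-identical copies, and their values (2.55 and 3.02, 3.34 and 2.20) are uncertain in that respect.

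The 10 lowest were Rbp4, Ccn1, Angpt4, Faim2, Maff, Ifrd1, Kdm6b, Sertad1, Gstp1 and Srf. Some alternatives lost the single-dose calls of Faim2 (-0.87) and Kdm6b (-0.81 at the smallest). Others lost the repetitive calls of Sertad1 (-0.96) and Srf (-0.60 at the smallest). Rbp4, the plasma carrier of retinol, was at 709 (637 to 787) CPM in single PBS, 95.8 (80.8 to 113) in single bleomycin, 546 (526 to 565) in repetitive PBS and 164 (157 to 171) in repetitive bleomycin, with both bleomycin libraries below both PBS libraries. It was a gene of the gate, at 77.3, 47.2, 69.5 and 64.4 CPM in the remaining barcodes. Angpt4, an angiopoietin that binds Tie2, was at 54.4, 15.3, 38.3 and 13.6 CPM in the gate and 0.985, 1.06, 1.48 and 1.85 CPM outside. Rbp4 had log2 ratios of bleomycin to PBS of -0.70 and -0.11 in the remaining barcodes and Angpt4 of 0.05 and 0.20. Ccn1, a matricellular protein also known as Cyr61, and the factors Maff and Srf belong to the rapid response to serum and stress, like the immediate early genes.

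The remaining Pdgfra-positive barcodes of the same libraries gave more calls. There, 793 of 10163 genes rose (7.8%) and 386 fell (3.8%) after the single dose, and 1051 of 14326 rose (7.34%) and 279 fell (1.95%) after repetitive doses. Of 9557 genes tested in both, 477 (4.99%) rose in both, 126 (1.32%) fell in both and 8 (0.0837%) were called in opposite directions. These barcodes are more numerous, and more genes reached 50 UMIs. The log2 ratio of the gate was lower than that of the remaining barcodes by more than 1 for 228 of 4651 genes (4.9%) after the single dose and for 478 of 11484 (4.16%) after repetitive doses. It was higher by more than 1 for 118 (2.54%) and 166 (1.45%). The difference of these ratios was not tested, as each rests on 1 library a condition.

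**Figure D5:**
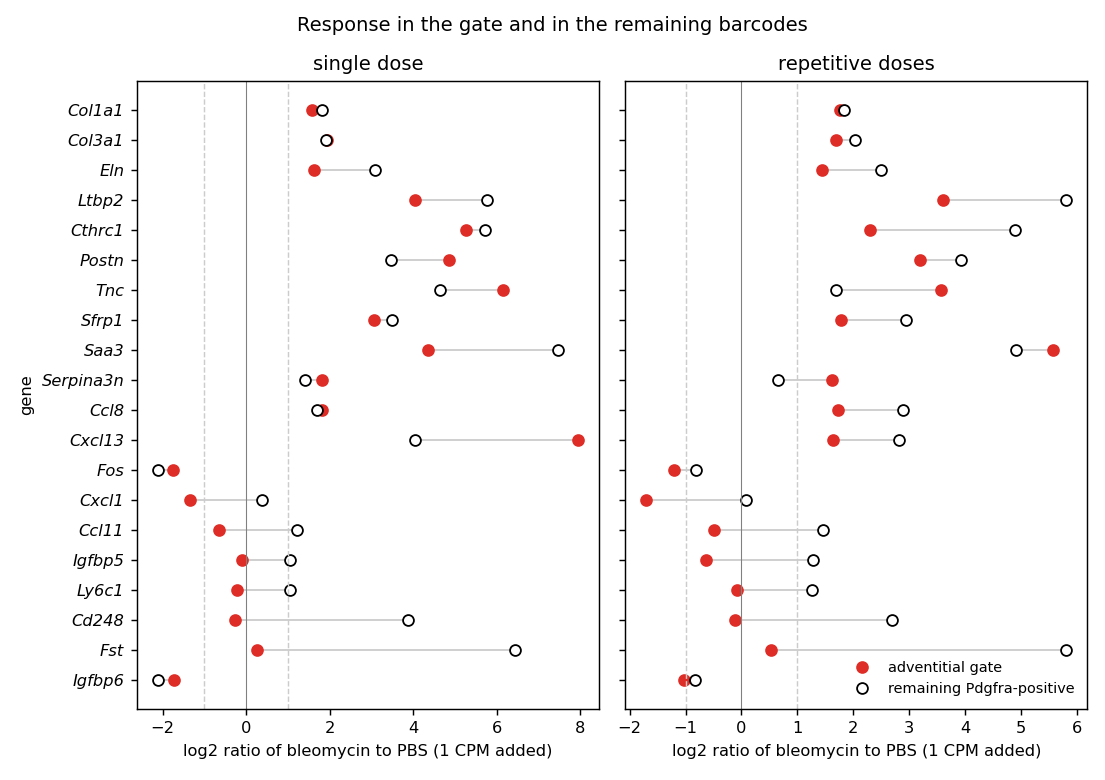
Log2 ratio of bleomycin to PBS (x axis, 1 CPM added) of 20 genes in the gate (red) and in the remaining Pdgfra-positive barcodes (open), after the single dose (left) and repetitive doses (right). The genes were picked after their values were seen. Dashed lines mark 2-fold, and Cd248 and Fst lie near 0 in the gate and above 2.6 in the remaining barcodes.

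Collagens rose in both groups of barcodes, and several genes were within 2-fold in the gate and past it outside. Col1a1 had log2 ratios of 1.57 and 1.75 in the gate and 1.82 and 1.84 in the remaining barcodes. The collagen list had medians of 1.50 and 0.62 in the gate and 1.94 and 1.51 outside, and the fibrogenic list 2.26 and 1.18 against 3.46 and 2.92. Fst, follistatin, an activin inhibitor, was at 90.7, 108, 68.2 and 99.3 CPM in the gate, within 2-fold in both experiments, and at 1.97, 256, 1.03 and 113 CPM in the remaining barcodes. Cd248 was likewise within 2-fold in the gate (-0.27 and -0.12) and rose in the remaining barcodes (3.88 and 2.69). Of the adventitial list, 3 rose and 5 fell after the single dose outside the gate, and 7 rose and 1 fell after repetitive doses, against 1 and 7, and 0 and 2, inside it. Cell cycle genes rose outside the gate, 12 and 8 of 15, where they reached the minimum, and p53 targets rose in 8 and 4 of 12.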

How the data were processed

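Droplet single-cell RNA-seq (10x Genomics 3' v2) was done on live GFP+ lung cells. The authors aligned and counted the reads and deposited tables of raw UMI counts (whole numbers, not normalized) with a row for each gene and a column for each barcode. The submitters' processing notes name Cell Ranger 3.0.1 and Seurat 3, and the single-dose libraries were mapped to GRCm38 with Gencode M17 as the paper's methods state. The 4 lung tables held 7201081, 11869967, 64697147 and 68354458 UMIs, and the 2 organoid tables were not used here. Genes written Ctgf and Cyr61 in the single-dose tables were read as Ccn2 and Ccn1.

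Counts were read with Python 3.11.15, numpy 2.4.6 and pandas 2.3.3, intervals came from scipy 1.17.1 and plots from matplotlib 3.10.9. Gate UMIs were summed per library and scaled to CPM. Ratios were taken as log2 after adding 1 CPM, and a gene with at least 50 UMIs over both groups was called past 2-fold. Intervals of counts were exact Poisson, of shares exact Clopper-Pearson, and of ratios exact conditional binomial, all at 95% and for counting error only. A gene with no UMI in a group was placed at 3 UMIs for a lower bound. The steps were tested on simulated data, drawn as Poisson counts, which is the model the intervals assume. Clustering of UMIs in single barcodes was not simulated, so that run checks the arithmetic and cannot show that the intervals hold for clustered genes. With 1 library of 3 pooled mice a condition, no test between conditions was run, and no p-value was computed.

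The gate, its markers and the 20 gene lists were chosen with earlier results of these data known. Genes named in the text were the rule genes, the markers, list members, and, on no list, the 10 highest and 10 lowest by the ratio nearest 0 of the libraries or experiments compared (predicted, ribosomal and mitochondrial genes left out). The alternatives tried concerned the depth minimum, thinning, the rule, the CPM added, the UMI minimum, mitochondrial and immunoglobulin barcodes, weighting, centring, and leaving out the deepest barcodes, barcodes without Pdgfra, barcodes with Col14a1 alone, or the barcode with most UMIs of a gene. As an alternative, thinning was used only to choose the barcodes, and ratios were taken from all their UMIs. The UMI minimum decides which genes can be called and cannot change the ratio of a gene. Counts of alternatives given for a gene therefore go by its ratio alone, whether or not it met a higher minimum. The immunoglobulin alternative removed no gate barcode of the single-dose libraries, so it could not change a single-dose ratio either.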

Additional observations from a re-analysis of the deposited data

Results flagged for a closer look

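Some genes had log2 ratios of bleomycin to PBS of opposite sign in the gate and in the remaining Pdgfra-positive barcodes, past 2-fold in both experiments in 1 of these groups of barcodes and within it in the other. Others were past 2-fold in opposite directions after the single dose and after repetitive doses. None of these differences was tested, since each ratio compares 2 libraries. Values are log2 ratios of bleomycin to PBS, for the single dose and then for repetitive doses.

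Some surface and growth factor genes were within 2-fold in the gate and rose outside it. Cd248 was at -0.27 and -0.12 in the gate and 3.88 and 2.69 in the remaining barcodes. Ly6c1 was at -0.23 and -0.0808 in the gate and 1.05 and 1.26 outside, where its level in PBS was 9.26 and 1.83 CPM. Igfbp5, which binds insulin-like growth factors, was at -0.10 and -0.63 in the gate and 1.04 and 1.28 outside. In single PBS 1 barcode held 34.9% of the Igfbp5 UMIs of the gate, so the sign of its single-dose gate ratio leans on that barcode. Immune barcodes held 35.2, 7.43, 39.96 and 22.7 CPM of Ly6c1 and 0, 12.4, 0.754 and 9.49 CPM of Cd248, in the order single PBS, single bleomycin, repetitive PBS and repetitive bleomycin, and the part of free RNA in these values was not tested.

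Chemokine genes also parted. Ccl11, which draws eosinophils, was at -0.65 and -0.49 in the gate and 1.21 and 1.45 outside. Cxcl1 was at -1.36 and -1.70 in the gate and 0.37 and 0.0892 outside. Within the gate, Ccl2, a monocyte chemokine, was at 1.26 and -1.74 and Cxcl10, an interferon-induced chemokine, at 1.03 and -1.40, higher after the single dose and lower after repetitive doses. In single PBS 1 barcode held 90.5% of the Ccl2 UMIs, and in single bleomycin 1 barcode held 49.5% of the Cxcl10 UMIs. The rise of Ccl2 was under 2-fold in the gate on Pi16 and Scara5 alone and without barcodes of Col14a1 alone, with values of 0.40 to 3.71 over the alternatives tried. That of Cxcl10 was under 2-fold in 3 of 16 alternatives, with values of 0.87 to 2.76.

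Wt1, a transcription factor of mesothelium, was at 4.51 and -1.28 in the gate. It had 1, 102, 315 and 279 UMIs there, so the single-dose ratio rests on 1 UMI in PBS. Wt1 was seen in 15.9% of the gate of single bleomycin. Of the 5 mesothelial markers, 4 had UMIs in that gate and summed to 95.8 CPM, against 2.01 CPM in single PBS, and Msln was at 0. The 29 UMIs of Upk3b, a mesothelial uroplakin, were all in 1 barcode. The part of mesothelial cells in these values was not tested.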

How the results depend on the processing

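The bleomycin share of the gate was above the PBS share of its experiment under each alternative tried. Thinning moved the share most in each library, and the cause was not tested. It gave 4.81%, 9.63%, 6.39% and 17.6%. Without Col14a1 in the rule the share was 14.5% in single bleomycin, 8.39% in repetitive PBS and 18.5% in repetitive bleomycin. With at least 5 UMIs it was 9.84% and 21.9% in the repetitive libraries, and among Pdgfra-positive barcodes 9.34% and 24.5%. In repetitive bleomycin it was 22.5% with a minimum of 1000 UMIs and 23.2% without barcodes of Col14a1 alone.

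Genes higher in the gate in all 4 libraries were 52 with at least 200 UMIs and 362 with no minimum, and those lower were 114 with at least 200 UMIs and 106 with 10 CPM added. For bleomycin within the gate, the thinned rule left 146 genes higher and 93 lower after the single dose, and 28 higher in both experiments, 27 of them among the 76. Without Col14a1 in the rule, 181 were higher after the single dose, 34 higher in both (31 of the 76) and 20 lower in both (19 of the 33). With 10 CPM added, 184 were higher and 127 lower after the single dose, and 130 and 79 after repetitive doses. With at least 200 UMIs, 66 were higher and 76 lower after the single dose, 193 higher after repetitive doses and 29 in both. With no minimum, 2377 were higher and 1231 lower after the single dose, 608 higher after repetitive doses, and 298 higher and 73 lower in both. Leaving out barcodes of Col14a1 alone, an alternative chosen after seeing the data, gave 50 higher in both. In the remaining barcodes, 10 CPM added gave 183 higher and 66 lower in both.

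Of 25 list genes higher in both experiments 14 stayed past 2-fold under all 16 alternatives, and of 17 lower in both 9 did. Signs reversed after the single dose for Acta2 (-0.15), Tagln (-2.20) and Igfbp3 (0.67) in the gate without Col14a1. After repetitive doses Cd68 reversed under the thinned rule (-0.39), with at least 5 UMIs (-0.31), without Col14a1 (-0.30), without the deepest 5% of barcodes (-0.61) and without its top barcode (-0.19). Of the values recomputed, 9700 stayed on the same side of 2-fold, 356 crossed it and 8 called values reversed. The 9700 include the 629 values of each UMI minimum, which were fixed in advance. Removing barcodes above 1% immunoglobulin took no gate barcode from the single-dose libraries, so single-dose values under it were fixed as well. Values within 2-fold could change sign and are counted as on the same side. Leaving out a replicate was not possible with 1 library a condition. No paired analysis was possible because each comparison sets 1 library against 1, and the experiments, which differ in dosing, were not taken as replicates of each other.

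Depth limits the single-dose gate above all: 3 UMIs, the bound used for a gene with none, are 6.04 CPM in single PBS, 2.00 in single bleomycin, 0.532 in repetitive PBS and 0.241 in repetitive bleomycin.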

Other observations

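The eGFP transcript of the reporter had a row in the single PBS table, and stood at 369 CPM in the gate and 802 CPM in the remaining barcodes. In the same library Pdgfra was at 234 CPM in the gate and 582 CPM in the remaining barcodes, which were chosen for a Pdgfra UMI.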
